A study of Mus musculus with 17 samples.

Results

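A set of 10 genes used as markers of the layers of the neocortex were followed in bulk RNA sequencing of mouse dorsal hippocampus. They were taken by symbol from the table of 24498 genes, all 10 were present, and all 10 were detected in each of the 17 libraries. Lamp5 marks layer 2/3, Rorb, Rspo1 and Scnn1a layer 4, Ddit4l layers 4 to 5, Fezf2 and Tshz2 layer 5, Foxp2 and Hs3st4 layer 6, and Cckbr deep layers and interneurons. Because the tissue was labelled dorsal hippocampus, their level in each library was read as a measure of the cortex that the tissue slices carried.

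Acss2 encodes acetyl-CoA synthetase 2, which turns acetate into acetyl-CoA, and the mice were either wild type (WT) or constitutive Acss2 knockouts (KO). Each had been injected at 6 months of age in the right dorsal hippocampus, with tau that was purified from the brain of people with Alzheimer's disease (Tau) or with phosphate-buffered saline (PBS), and RNA was taken about 6 months later, after fixative perfusion, from slices about 1 mm thick. The male groups were WT PBS (libraries 791, 792 and 793), WT Tau (771, 772 and 773), KO PBS (751, 752 and 753) and KO Tau (711, 712 and 713). The female groups were WT Tau (331 and 341) and KO Tau (314, 324 and 325), and there was no female PBS group. The labels describe the libraries as biological replicates. The KO is constitutive and so not limited to a cell type, and the tau was injected, not expressed from a transgene.

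The neocortex lies directly over the dorsal hippocampus, with a sheet of white matter between them, and its excitatory neurons are arranged in layers that differ in the genes they express. Layer 4 receives sensory input from the thalamus, layer 5 holds neurons that project below the cortex, and layer 6 holds neurons that project back to the thalamus. Several of the markers are transcription factors of these neurons, namely Rorb, Fezf2, Tshz2 and Foxp2. Several are not exclusive to cortex: Rorb and Foxp2 are also expressed in thalamus, Foxp2 in striatum, and Lamp5 in inhibitory interneurons of the hippocampus as well as of the cortex. A bulk level cannot tell fewer cells of a type from less RNA per cell.

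The sequence before the annotated start is shown for 4 of the markers, Rorb, Rspo1 and Cckbr, which moved together across libraries, and Hs3st4, which moved against them. Promoters of 8 of the 10 were found in the RefSeq table for GRCm38.p6, and Foxp2 and Scnn1a are named only. Each line gives the 250 bases upstream of the start, 5′ to 3′ in the direction of the gene, with the motif CANNTG in capitals on both strands (its reverse complement is the same motif).
Rorb: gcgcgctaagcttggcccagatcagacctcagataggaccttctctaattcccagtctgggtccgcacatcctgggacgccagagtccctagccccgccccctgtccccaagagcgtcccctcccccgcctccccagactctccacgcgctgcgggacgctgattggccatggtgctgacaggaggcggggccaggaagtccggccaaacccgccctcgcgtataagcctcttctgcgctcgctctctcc
Rspo1: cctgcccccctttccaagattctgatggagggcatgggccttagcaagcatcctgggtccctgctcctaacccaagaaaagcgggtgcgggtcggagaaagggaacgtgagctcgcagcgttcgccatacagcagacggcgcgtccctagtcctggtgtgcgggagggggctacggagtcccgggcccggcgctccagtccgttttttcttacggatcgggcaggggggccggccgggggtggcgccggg
Cckbr: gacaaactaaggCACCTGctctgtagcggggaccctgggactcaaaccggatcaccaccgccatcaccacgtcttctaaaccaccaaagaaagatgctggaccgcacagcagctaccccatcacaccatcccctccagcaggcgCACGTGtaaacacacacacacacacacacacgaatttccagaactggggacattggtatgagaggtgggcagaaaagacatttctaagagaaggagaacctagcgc
Hs3st4: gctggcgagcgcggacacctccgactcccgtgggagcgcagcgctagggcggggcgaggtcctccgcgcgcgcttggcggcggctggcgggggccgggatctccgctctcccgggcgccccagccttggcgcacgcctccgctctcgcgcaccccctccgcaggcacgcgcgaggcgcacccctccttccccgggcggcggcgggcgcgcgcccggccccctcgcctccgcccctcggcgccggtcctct
These windows are chr19:19111197-19111446 on the minus strand for Rorb and, on the plus strand, chr4:124986180-124986429 for Rspo1, chr7:105425481-105425730 for Cckbr and chr7:123982578-123982827 for Hs3st4. The Cckbr window held 2 matches to CANNTG, and the windows printed for Rorb, Rspo1 and Hs3st4 held 0. Rorb has a second annotated start, whose window (chr19:19001118-19001367, minus strand, not printed) held 2 matches to CANNTG and 0 to CCGCCC, with a GC content of 39.2%. Among 32536 promoter windows of the same length, 66.2% held at least 1 match. The motif TATAAA was in 0 of the 4 windows, against 12.3% of all windows. CCGCCC was found 2 times for Rorb and 3 times for Hs3st4, and 33.0% of all windows held it. GC content was 66.0% for Rorb, 66.8% for Rspo1, 53.6% for Cckbr and 82.0% for Hs3st4, against a median of 52.4% over all windows. A match describes the letters in the window and is not a binding site.

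Total counts ran from 14183131 to 22463635 per library, and levels are given as CPM, the counts of a gene scaled by the total count of its library. The targeted gene Acss2 lay between 3.07 and 8.81 CPM where the label was KO (9 libraries) and between 44.04 and 54.6 CPM where it was WT (8 libraries), so genotype labels and counts matched. Library 752 stood apart from the other male KO PBS libraries in its markers of brain region, and libraries 711, 712 and 713 differed among themselves, as described with the marker lists. The lowest count behind any level of the 10 genes was 16 reads, for Rspo1 in library 324.

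Lamp5, a lysosome-associated membrane protein family member and marker of layer 2/3, varied most in absolute terms. Lamp5 (ENSMUSG00000027270.14, chr2:136052239-136069917, plus strand) was at 84.6, 96.7 and 95.2 CPM in male WT PBS and at 54.8, 51.6 and 96.6 CPM in male WT Tau. In male KO mice it was at 42.5, 350.1 and 54.6 CPM with PBS and at 32.3, 179 and 229 CPM with Tau. In females it was at 36.6 and 38.9 CPM in WT Tau and 60.6, 24.1 and 38.8 CPM in KO Tau. Libraries 752, 713 and 712 were the highest of the 17, and the lowest of these was 1.85 times the next library, 792. The male KO PBS mean was 149 ± 174 CPM (SD, n = 3), against 92.1 ± 6.61 CPM (SD, n = 3) in male WT PBS, so the spread in KO was larger than its own mean.

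Among the layer 4 markers, Rorb encodes a nuclear receptor that acts as a transcription factor. Rorb (ENSMUSG00000036192.15, chr19:18930605-19111196, minus strand) was at 20.00, 23.1 and 21.9 CPM in male WT PBS and 15.9, 17.97 and 22.5 CPM in male WT Tau. The male KO levels were 13.2, 75.3 and 15.5 CPM with PBS and 25.4, 41.2 and 36.7 CPM with Tau. Female levels were 29.9 and 20.03 CPM in WT Tau and 28.7, 25.3 and 29.9 CPM in KO Tau. All 3 male KO Tau libraries lay above all 6 male WT libraries, while within male KO PBS library 752 was 5.71 times library 751.

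Rspo1, which encodes a secreted R-spondin that amplifies Wnt signalling, had the widest range of the 10. Rspo1 (ENSMUSG00000028871.7, chr4:124986430-125009099, plus strand) was at 1.53, 5.79 and 3.40 CPM in male WT PBS and 1.13, 2.14 and 3.30 CPM in male WT Tau. In the male KO groups it was at 0.964, 32.7 and 1.10 CPM with PBS and 1.26, 10.01 and 16.9 CPM with Tau. Female WT Tau libraries had 2.26 and 1.56 CPM and female KO Tau libraries 3.45, 1.09 and 4.42 CPM. The highest library, 752, was 33.9 times the lowest, 751, although both came from male KO PBS mice. Libraries 713 and 712 followed 752, while 711, of the same group as 712 and 713, lay below all 3 male WT PBS libraries.

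Scnn1a, the alpha subunit of the epithelial sodium channel, is the third of the layer 4 markers. Scnn1a (ENSMUSG00000030340.16, chr6:125320659-125344943, plus strand) was at 13.2, 12.7 and 11.3 CPM in male WT PBS and 11.4, 10.4 and 10.97 CPM in male WT Tau. It was at 8.57, 9.61 and 13.5 CPM in male KO PBS and 5.17, 14.2 and 8.99 CPM in male KO Tau. Female libraries were lower on average, at 7.06 and 5.61 CPM in WT Tau and 4.09, 3.21 and 9.02 CPM in KO Tau. Unlike Rorb and Rspo1, Scnn1a in library 752 lay inside the range of the other male libraries.

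Of the layer 5 markers, Fezf2 encodes a zinc finger transcription factor needed for neurons that project below the cortex. Fezf2 (ENSMUSG00000021743.6, chr14:12342094-12348189, minus strand) was at 51.02, 53.9 and 53.8 CPM in male WT PBS and 48.2, 43.1 and 51.5 CPM in male WT Tau. Male KO levels were 42.6, 24.7 and 55.7 CPM with PBS and 36.5, 60.97 and 46.8 CPM with Tau. In females Fezf2 was at 38.1 and 32.7 CPM in WT Tau and 38.1, 28.6 and 22.9 CPM in KO Tau. Library 752 was the lowest of the male libraries for Fezf2, although it was the highest for Lamp5, Rorb and Rspo1.

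Tshz2, a teashirt family zinc finger gene, also ran low in library 752. Tshz2 (ENSMUSG00000047907.11, chr2:169633013-170071816, plus strand) was at 119, 114 and 117 CPM in male WT PBS and 126, 123 and 87.2 CPM in male WT Tau. The male KO PBS libraries had 39.97, 22.7 and 161 CPM and the male KO Tau libraries 65.5, 165 and 88.97 CPM. The female libraries had 162 and 68.6 CPM in WT Tau and 23.6, 38.6 and 159 CPM in KO Tau. Within male KO PBS and within female KO Tau the highest library was 7.07 and 6.75 times the lowest, while the 3 male WT PBS libraries differed by a factor of 1.04.

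Ddit4l, which encodes an inhibitor of mTOR signalling and marks layers 4 to 5, was also highest in libraries 752, 712 and 713. Ddit4l (ENSMUSG00000046818.7, chr3:137621612-137628333, plus strand) was at 19.8, 23.4 and 20.5 CPM in male WT PBS and 19.8, 19.7 and 18.2 CPM in male WT Tau. Among male KO libraries it was at 9.64, 49.8 and 25.1 CPM with PBS and 12.05, 41.8 and 39.3 CPM with Tau. Female values were 19.4 and 10.95 CPM in WT Tau and 15.02, 10.1 and 13.1 CPM in KO Tau. The male WT Tau libraries all lay below the male WT PBS libraries, by a small margin, and the means were 19.2 ± 0.898 and 21.2 ± 1.86 CPM (SD, n = 3 each).

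In layer 6, Foxp2 encodes a forkhead transcription factor. Foxp2 (ENSMUSG00000029563.16, chr6:14901349-15441977, plus strand) was at 5.43, 7.13 and 6.03 CPM in male WT PBS and 3.52, 5.81 and 8.86 CPM in male WT Tau. Male KO mice had 2.13, 24.1 and 3.02 CPM with PBS and 4.42, 18.4 and 12.04 CPM with Tau. Female mice had 14.4 and 7.66 CPM in WT Tau and 6.06, 12.8 and 15.7 CPM in KO Tau. Libraries 752 and 712 were the highest, and female libraries 325 and 331 came next.

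Hs3st4, a heparan sulfate 3-O-sulfotransferase, behaved in the opposite way. Hs3st4 (ENSMUSG00000078591.1, chr7:123982869-124398989, plus strand) was at 105, 123 and 121 CPM in male WT PBS and 140.4, 149 and 123 CPM in male WT Tau. In male KO it was at 143, 83.7 and 147 CPM with PBS and 166, 95.1 and 107 CPM with Tau. In female mice it was at 87.2 and 153 CPM with WT genotype and 139.7, 199 and 84.1 CPM with KO genotype. Library 752 had the lowest level of the 17, and 711 was the highest male library. Its range over all libraries, 2.38 times from lowest to highest, was the narrowest of the 10.

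Cckbr, the receptor for cholecystokinin and gastrin, is used for deep layers and interneurons. Cckbr (ENSMUSG00000030898.15, chr7:105425731-105470898, plus strand) was at 41.4, 41.9 and 39.7 CPM in male WT PBS and 24.5, 17.1 and 43.6 CPM in male WT Tau. It reached 7.81, 61.1 and 24.7 CPM in male KO PBS and 6.81, 83.2 and 79.8 CPM in male KO Tau. Female levels stood at 13.1 and 10.2 CPM in WT Tau and 16.9, 5.26 and 8.15 CPM in KO Tau. Within male KO Tau, library 712 was 12.2 times library 711, and the mean of 56.6 ± 43.1 CPM (SD, n = 3) lay far from 711.

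**Figure D1:**
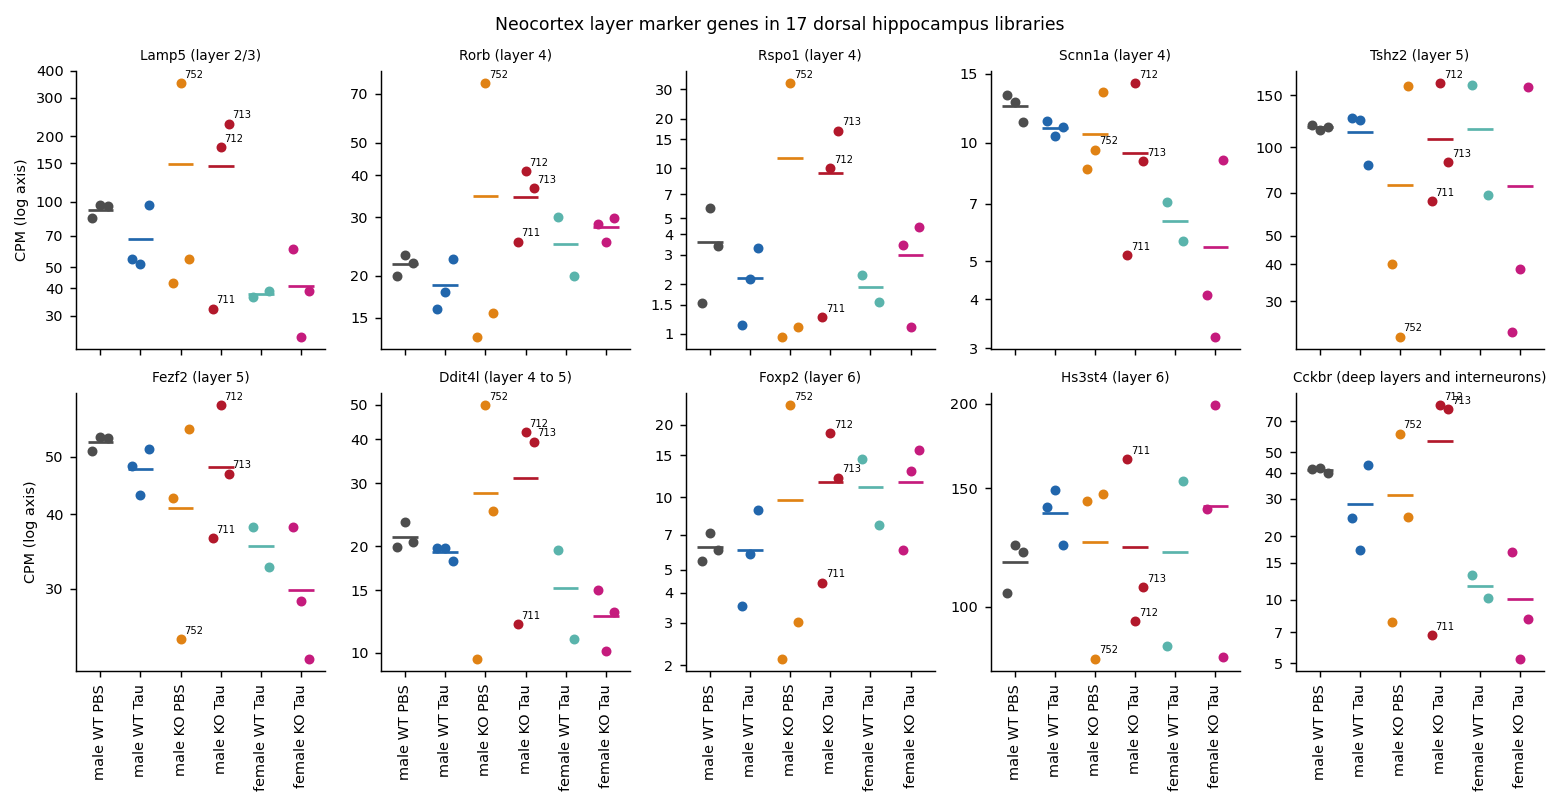
Levels of the 10 layer markers, 1 panel per gene, with CPM on a log axis against the 6 groups. Each point is a library, each horizontal line is the mean of its group, and libraries 752, 711, 712 and 713 carry their number. In the panels of Lamp5, Rorb, Rspo1, Ddit4l and Cckbr, libraries 752, 712 and 713 are the 3 highest points, while 752 is the lowest point for Tshz2 and Hs3st4.

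Levels of different genes were compared per kilobase of exon, from the union of annotated exons. The median over the 17 libraries was 38.7 CPM per kilobase for Hs3st4, 18.7 for Lamp5, 14.6 for Tshz2 and 14.2 for Fezf2. It was 8.54 CPM per kilobase for Cckbr, 6.76 for Ddit4l, 2.33 for Scnn1a, 2.09 for Rorb, 1.16 for Rspo1 and 0.436 for Foxp2. Every neighbouring pair in this order overlapped in range over the libraries, for example Lamp5 at 8.20 to 119 CPM per kilobase against Tshz2 at 2.92 to 21.2. Both ends of the order were thus layer 6 markers, Hs3st4 highest and Foxp2 lowest.

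Spread between libraries of 1 group was larger for these markers than for most genes. The pooled within-group SD of log2 CPM had a median of 0.829 over the 10 markers and of 0.218 over the 15594 genes kept across all libraries. Rspo1, at an SD of 1.60, ranked 26 of 15594 from the largest, Cckbr ranked 113, Lamp5 226, Foxp2 235 and Tshz2 312. Fezf2 had the smallest SD of the 10 and ranked 4096. By group, the median SD of the markers was 0.112 in male WT PBS, close to the 0.109 of all genes there, and 0.274 in male WT Tau against 0.119 for all genes. It was 1.42 in male KO PBS and 0.863 in male KO Tau, where all genes had 0.209 and 0.232. In females it was 0.382 in WT Tau and 0.689 in KO Tau, against 0.182 and 0.205 for all genes. By median SD the markers were therefore about as uniform as all genes in male WT PBS, although Rspo1 had an SD of 0.926 there. They differed most between libraries of the male KO groups.

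Counted by library, 752 was the highest of all 17 libraries for 5 markers and 712 for 4. Library 712 was among the 3 highest for 9 of 10 markers, 752 for 6 and 713 for 5. Against the range of the 3 male WT PBS libraries, 712 lay above it for 9 markers and below it for 1, 752 above for 6 and below for 4, and 713 above for 6 and below for 3. Library 751 lay below that range for 9 markers and 711 for 8. Female library 324 was among the 3 lowest for 7 markers. Libraries of 1 group were thus found at both ends, 752 and 751 within male KO PBS and 712 and 711 within male KO Tau.

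**Figure D2:**
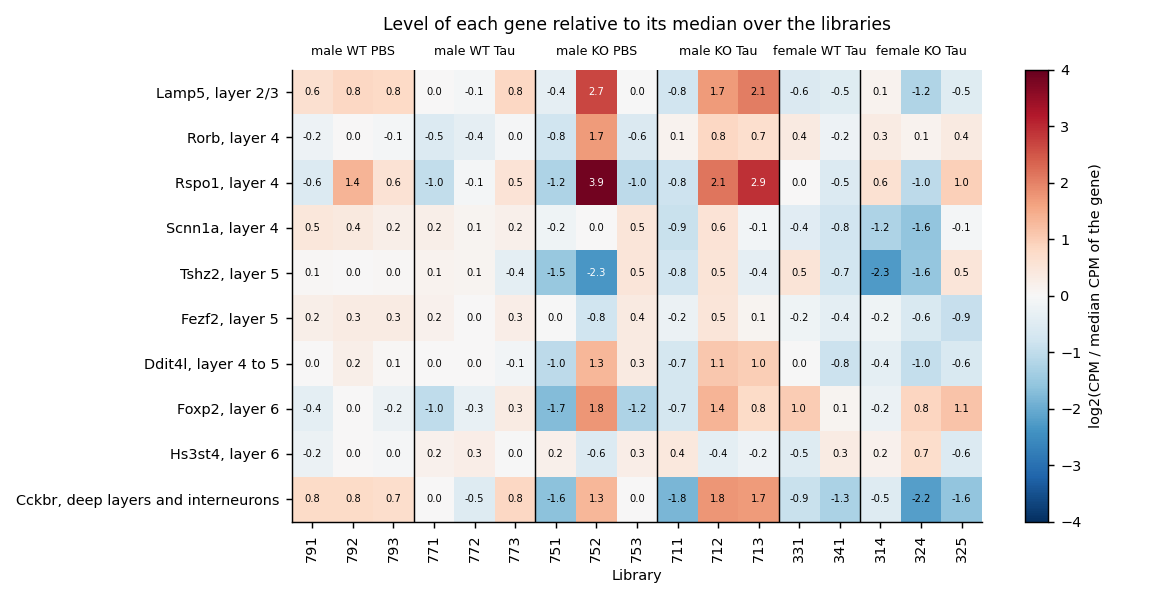
Level of each marker in each library as log2 of CPM over the gene's median CPM across the 17 libraries, with genes as rows in layer order, libraries as columns by group, red above and blue below the median. Library 752 is red for Rorb, Rspo1, Foxp2, Ddit4l, Lamp5 and Cckbr and blue for Tshz2, Fezf2 and Hs3st4, while 712 and 713 are red for most markers.

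The layer markers as a list were set beside other lists of region and cell type markers. A score was taken per library as the mean, over the genes of a list, of log2 CPM (prior count 2) relative to the mean of all libraries. For the 10 layer markers it was 0.07, 0.38 and 0.23 in male WT PBS and -0.18, -0.09 and 0.23 in male WT Tau. It was -0.82, 0.88 and -0.09 in male KO PBS and -0.62, 0.99 and 0.84 in male KO Tau. In females it was -0.08 and -0.49 in WT Tau and -0.37, -0.74 and -0.14 in KO Tau. The highest scores were those of 712, 752 and 713 and the lowest those of 751, 324 and 711. The 10 genes together took 734, 708 and 665 CPM in libraries 752, 712 and 713 and 311 CPM in 751, the library with the lowest sum.

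The other neocortex list held 19 further markers of layers 2 to 6b. Its score was 0.65, 0.48 and 0.39 in libraries 712, 752 and 713, and -0.80, -0.61 and -0.58 in 711, 324 and 751, the 3 lowest. Male WT PBS library 793, at 0.42, lay between 752 and 713. Its summed level was 834 to 870.3 CPM in male WT PBS, 675 to 1106 CPM in male KO PBS and 567 to 1086 CPM in male KO Tau. Tbr1, a transcription factor of cortical excitatory neurons, was at 148, 136 and 113 CPM in 752, 712 and 713 and at 41.3 and 35.6 CPM in 751 and 711. Cux1, a marker of upper layers, was at 158, 95.8 and 101 and 42.05 and 57.1 CPM in the same libraries. Mdga1 went the other way, at 15.4, 26.6 and 46.4 CPM in 752, 712 and 713 and at 139.8 and 103 CPM in 751 and 711. The 2 highest and the 3 lowest libraries were thus the same for the 10 layer markers and for the 19 others, although single genes such as Mdga1 ran against their list.

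Dentate granule and CA1 scores were below 0 in the 3 libraries with the highest layer marker scores, but not in those alone. The dentate granule score was -2.03, -1.17 and -0.38 in libraries 752, 712 and 713 and 1.07 and 0.72 in 751 and 711. Male KO PBS library 753, at -0.40, lay below 713. C1ql2, a synaptic organizer secreted by granule cells, was at 4.96, 25.7 and 37.5 CPM in 752, 712 and 713 and at 96.6, 99.1 and 70.8 CPM in the male WT PBS libraries. The CA1 score was -1.61, -0.77 and -0.32 in 752, 712 and 713 and lay between 0.21 and 0.68 in the other 9 male libraries. In 752, 712 and 713 the CA2 score was -0.99, -0.65 and -0.17 and the CA3 score -1.30, -0.94 and -0.03. Male WT PBS library 793 was at -0.16 for CA2 and -0.06 for CA3, so 713 was not set apart by these lists. Fibcd1, a marker of dorsal CA1, was at 132, 154 and 146 CPM in male WT PBS, 19.8 CPM in 752 and 21.9 CPM in 712. Female library 324 had a low dentate score of -0.80 together with a low layer marker score, and female library 331 had a CA1 score of -1.02. Some hippocampal markers were low in 752, where Dsp was at 0.907 CPM and Lct at 1.21 CPM, both markers of granule cells. C1ql2, Fibcd1 and Dkk3 were detected in all 17 libraries, which does not measure how much hippocampus each library held. In library 752 the dentate and CA1 scores were the lowest of the 17, although Pdyn was highest and Mpped1 not lowest there.

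Library 752 also carried striatal markers. All 9 genes of the striatum list were at their highest there, and their sum was 1020.1 CPM against 189.7 to 295 CPM in the other 16 libraries. Ppp1r1b, a phosphatase inhibitor of striatal projection neurons, was at 178 CPM in 752 and 57.7 and 80.9 CPM in 712 and 713. Foxp2 and Rorb, which striatum or thalamus also express, were at their highest in 752 as well. The thalamus score of 752 was -0.56. Of the 5 female libraries, 4 had thalamus scores above every male library, 1.60, 0.62, -0.56, 1.46 and 1.18 in 331, 341, 314, 324 and 325 with 314 as the exception, against -0.71 to 0.37 in males. The part of striatum and thalamus in the levels of Foxp2 and Rorb was not tested. Library 713 carried choroid plexus as well, with a list sum of 4077 CPM against at most 589.9 CPM in the other 16 libraries.

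**Figure D3:**
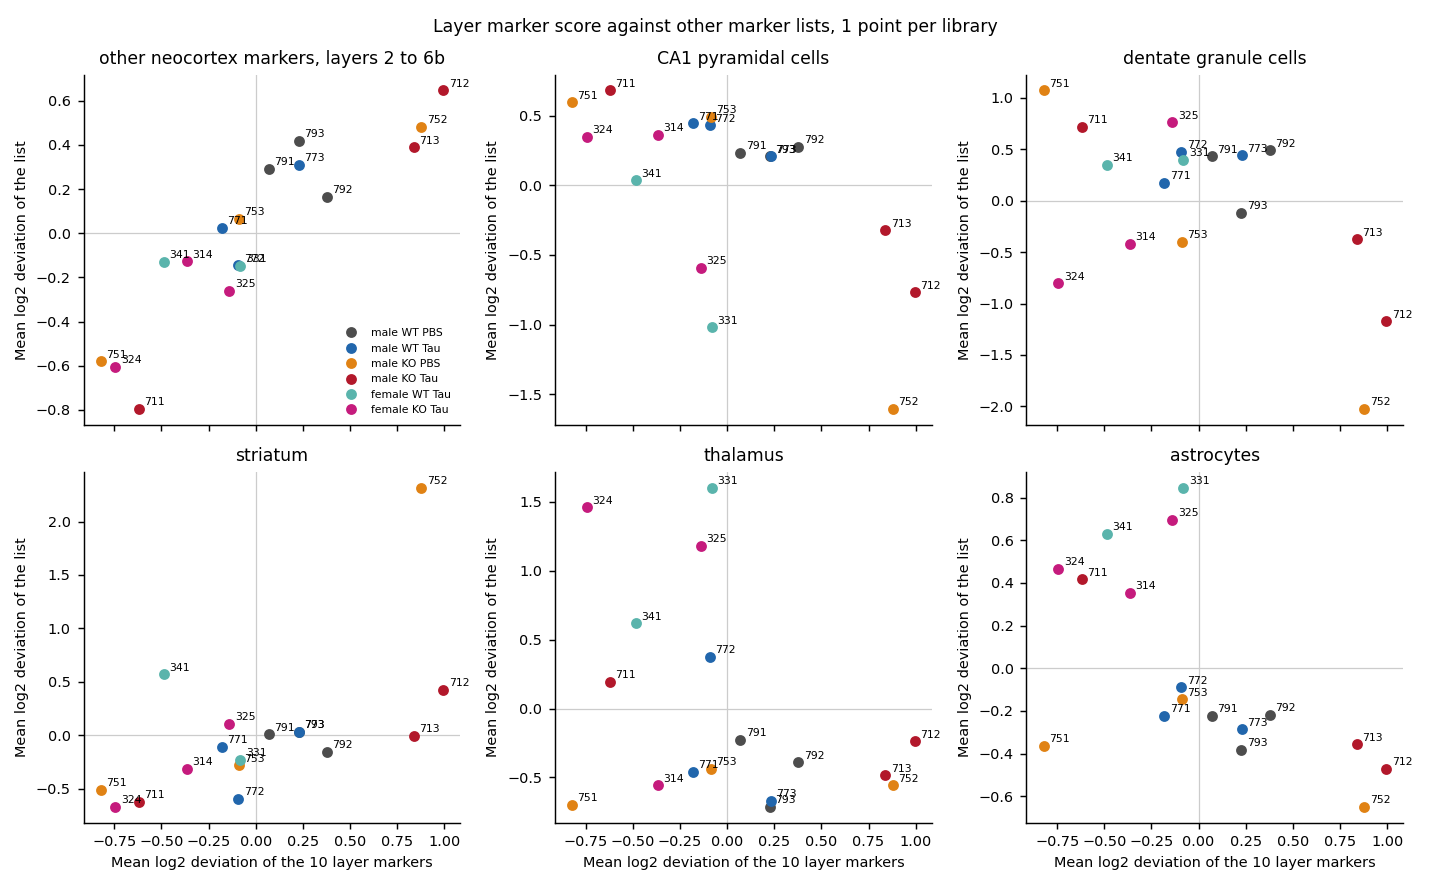
Score of the 10 layer markers on the horizontal axis against the score of 6 other lists on the vertical axes, both as mean log2 deviation, with 1 point per library coloured by group and labelled by number. Libraries 752, 712 and 713 lie at the right of each panel, above 0 for the other neocortex markers and below 0 for CA1, and 752 is alone at the top of the striatum panel.

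The 10 markers did not behave as 1 set. Likeness was taken as Pearson r of log2 CPM after subtracting the group mean, over the 17 libraries, which share depth and dissection within a library, and it is given as a description without a test. Of the 45 pairs, 29 had a positive r and 18 an r over 0.5. Lamp5 and Rspo1 were the closest pair at 0.94, followed by Lamp5 and Cckbr at 0.93, Rorb and Foxp2 at 0.91, and Ddit4l and Cckbr at 0.90. Hs3st4 was negative with 8 of the other 9 markers, down to -0.72 with Rspo1, and positive only with Fezf2 at 0.22. Tshz2 was closest to Scnn1a at 0.78 and near 0 with Cckbr and Foxp2.

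Library 752 weighed heavily on these values. Without it the number of positive pairs rose to 35 and those over 0.5 to 28, and the median r over pairs went from 0.23 to 0.60. Fezf2 and Cckbr, at 0.20 with all libraries, were at 0.78 without 752, and Fezf2 and Rorb went from -0.48 to 0.60. Hs3st4 stayed negative, reaching -0.85 with Scnn1a. Against the mean of the other 9 markers, Hs3st4 was at -0.79 with and -0.72 without 752, while Ddit4l was at 0.92 and 0.91. A sum over the 10 genes therefore adds markers that moved in opposite directions.

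**Figure D4:**
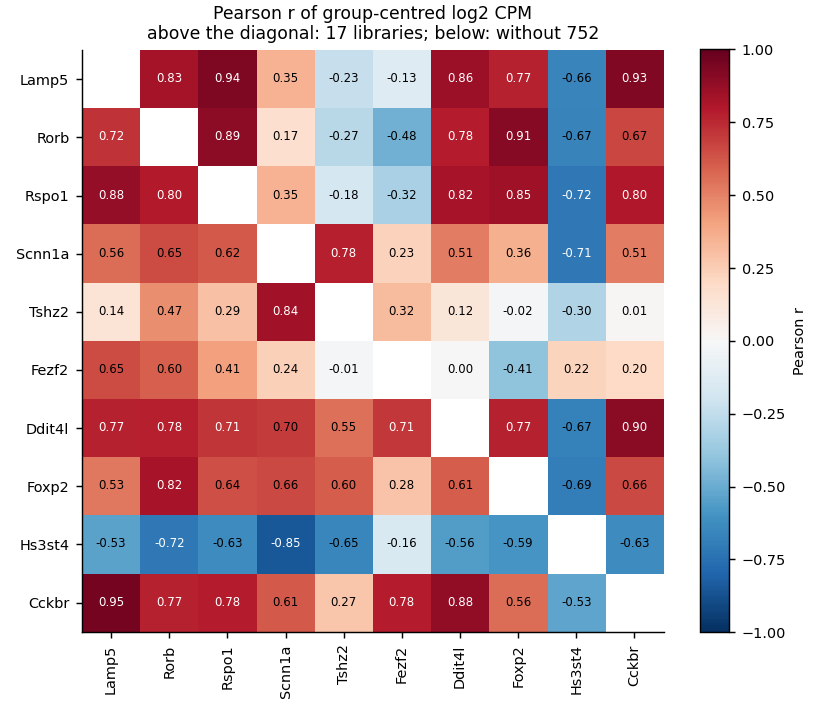
Pearson r of group-centred log2 CPM between each pair of the 10 markers, over 17 libraries above the diagonal and over 16 libraries without 752 below it, with red positive and blue negative. The Hs3st4 row and column are blue in nearly every cell, and the cells of Fezf2 with Rorb and Lamp5 turn from blue to red below the diagonal.

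Among 14067 genes outside the list with a mean of at least 1 CPM, the 10 most like the markers' joint pattern were named by rule. They were Cdc42ep3 (r 0.98), Lrrtm3, Hsf4, Sgsm1 and 9530082P21Rik (0.97), and Sowahb, Igfbp6, Btbd11, Kazn and Olfm2 (0.96), each over 17 libraries. Lrrtm3 encodes a synaptic adhesion protein and Olfm2 an olfactomedin family protein of the brain. Without library 752 their r ran from 0.94 to 0.98. For single markers, the closest gene outside the list was Ngef for Lamp5 (0.99), C77080 for Cckbr (0.98), Dpp4 for Ddit4l (0.98), Numb for Rspo1 (0.97), A630075F10Rik for Tshz2 (0.96), Herc6 for Rorb (0.96) and Smyd2 for Scnn1a (0.96). It was Tomm34 for Hs3st4 (0.95), Marc2 for Foxp2 (0.95) and 5730559C18Rik for Fezf2 (0.92). These are the top of a search over all 14067 genes and are given as a description.

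Male KO Tau was set against male WT Tau to ask whether loss of Acss2 changed the markers in tau-injected males. Of the 10, 7 had a positive log2 fold change, led by Rspo1 at 2.11 (SE 1.24), Lamp5 at 1.13 (SE 0.78), Cckbr at 1.01 (SE 0.78) and Foxp2 at 0.96 (SE 0.78). Rorb was at 0.89 (SE 0.53) and Ddit4l at 0.71 (SE 0.51). Fezf2 was at 0.03, Tshz2 at -0.05, Hs3st4 at -0.14 and Scnn1a at -0.18. The median of the 10 was 0.80, against 0.01 over all 15098 genes tested. None passed a false discovery rate (FDR) of 0.05 in edgeR's quasi-likelihood test on the 12 male libraries: 0 of 10 markers were called, with 0.00662% of all genes called, and 0 of 10 were under an unadjusted p of 0.05. DESeq2 on the same libraries also called 0 of 10, with 0.02% of all genes called. Rorb was the 1 marker whose libraries did not overlap between the groups, against 12.6% of all genes.

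The calls turned on library 711 and on which groups were fitted, in settings chosen after seeing the data. In its group 712 and 713 had high layer markers, with Lamp5 at 179 and 229 CPM against 32.3 CPM in 711. The paper's bulk sequencing figure gives fewer KO Tau mice than there are male KO Tau libraries here, and names none as left out. With that low library left out and only the groups compared, DESeq2 called as many genes in total as the paper reports. This held against WT Tau and against WT PBS, so the authors' own fit was probably this one. With DESeq2 on only the groups compared and without 711, 7 of 10 markers were called, 6 higher and 1 lower in KO, with 9.3% of all genes called (4.28% higher and 5.02% lower). Log2 fold changes were then 2.63 for Rspo1 (SE 0.39, adjusted p 8.40e-09), 1.60 for Lamp5 (SE 0.43, adjusted p 0.00434) and 1.53 for Cckbr (SE 0.52, adjusted p 0.0403). Foxp2 was at 1.34, Ddit4l at 1.09 and Rorb at 1.06, all called, and Hs3st4 was called lower at -0.43. edgeR on those 5 libraries called 5 of 10, with 4.88% of all genes called, and left out Foxp2 (FDR 0.0610) and Hs3st4 (FDR 0.0530). edgeR on all male libraries without 711 called 0 of 10, with 0.00655% of all genes called. With all 6 libraries, DESeq2 on only the groups compared called Rorb alone, at 0.90, among 0.188% of all genes.

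Other region markers moved with the layer markers in that setting. In DESeq2 on only the groups compared without 711, the other neocortex list had 8 of 19 genes called higher and 2 lower with a median of 0.66, and all genes had a median of 0.00. Tbr1 was among those called. The dentate granule list had 3 of 8 genes called lower and 1 higher with a median of -1.57, and the CA1 list 4 of 6 lower with a median of -0.90. CA2 and CA3 markers had 3 of 6 and 2 of 5 called lower, and 3 of 9 inhibitory neuron markers, Slc32a1, Pvalb and Vip, were called higher. Without 711, the libraries of the groups did not overlap for 7 of 10 markers, against 42.3% of all genes. The part of tissue composition in these calls was not tested.

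The same male KO Tau libraries were then set against male WT PBS, for the combined effect of tau and Acss2 loss. In edgeR 7 of 10 markers were positive, with a median of 0.51, from 1.40 for Rspo1 (SE 1.19) to -0.38 for Scnn1a (SE 0.28). Lamp5 was at 0.67 and Cckbr at 0.47, and the others at 0.92 for Foxp2, 0.67 for Rorb, 0.55 for Ddit4l, 0.08 for Hs3st4, -0.13 for Tshz2 and -0.13 for Fezf2. Of the 10, 0 were called, with 0.00662% of all genes called, 0 were under an unadjusted p of 0.05, and DESeq2 on the same libraries called 0, with 0.075% of all genes called. Rorb again did not overlap, at 25.4, 41.2 and 36.7 CPM against 20.00, 23.1 and 21.9 CPM, which held for 14.4% of all genes.

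Without 711, both tools on only those groups called the same 5 markers higher, Rorb, Foxp2, Ddit4l, Lamp5 and Cckbr. DESeq2 gave Foxp2 at 1.30 (SE 0.25, adjusted p 2.30e-05), Lamp5 at 1.15 (SE 0.13, adjusted p 7.54e-15) and Cckbr at 0.99 (SE 0.09, adjusted p 4.56e-22). Rorb was at 0.85 and Ddit4l at 0.93. DESeq2 called 7.13% of all genes and edgeR 4.15% in this setting, and the libraries did not overlap for 6 of 10 markers against 40.2% of all genes. Rspo1 had a log2 fold change of 1.91 with an adjusted p of 0.0904 in DESeq2 and was not called. Other lists moved in that DESeq2 setting too, with 7 of 19 other neocortex markers called higher and 2 lower (median 0.39) and 3 of 8 dentate granule markers lower and 1 higher (median -1.35), against a median of 0.00 over all genes. CA1, CA2 and CA3 had 2 markers each called lower, of 6, 6 and 5. Choroid plexus, which library 713 carried, had 6 of 10 markers called higher (median 4.43). The part of tissue composition was not tested here either.

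**Figure D5:**
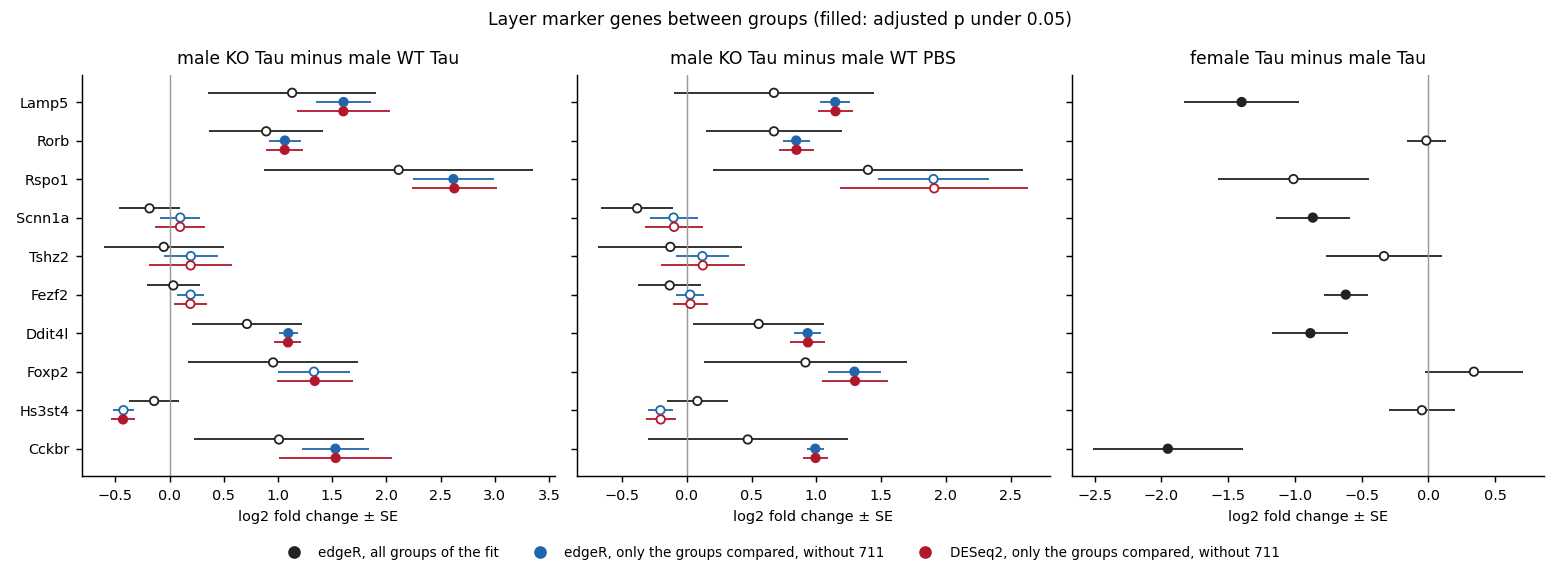
Log2 fold change with its standard error (SE) for each marker in 3 comparisons, with filled points for an adjusted p under 0.05. Black is edgeR on all groups of the fit, and blue and red are edgeR and DESeq2 on only the groups compared without library 711. In the male panels no black point is filled and the blue and red points of Lamp5, Rorb, Ddit4l and Cckbr are, and in the panel of female against male Tau 5 black points are filled on the negative side.

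Injected tau alone was examined in male WT Tau against male WT PBS. Of the 10 markers, 9 were lower on average in Tau, with a median log2 fold change of -0.18 against -0.01 over all genes, and Hs3st4 was the 1 above 0, at 0.22 (SE 0.23). The lowest values were -0.71 for Rspo1 (SE 1.27), -0.54 for Cckbr (SE 0.78) and -0.46 for Lamp5 (SE 0.77). The others were at -0.22 for Rorb, -0.20 for Scnn1a, -0.17 for Fezf2, -0.16 for Ddit4l, -0.07 for Tshz2 and -0.04 for Foxp2. edgeR called 0 of 10, with 0% of all genes called, and 0 of 10 were under an unadjusted p of 0.05. DESeq2 called 0 of 10, with 0% of all genes called. Ddit4l was the 1 marker without overlap, against 12.2% of all genes. Library 773 stood with the PBS libraries for Lamp5 and Cckbr, at 96.6 and 43.6 CPM. Without it, on only these groups and in a setting chosen after seeing the data, both tools called these 2 markers lower in Tau. Lamp5 was at -0.80 and Cckbr at -0.99 in DESeq2, with 2.33% of all genes called by DESeq2 and 0.108% by edgeR. With all male libraries in edgeR, 2 of 19 other neocortex markers were positive, with a median of -0.18. The dentate, CA1, CA2 and CA3 lists had medians from 0.11 to 0.21. Oligodendrocyte and choroid plexus markers were all positive, with medians of 0.44 and 1.99. None of these genes was called, and the part of tissue composition was not tested.

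Loss of Acss2 without tau was examined in male KO PBS against male WT PBS. Of the 10 markers, 6 were positive, with a median log2 fold change of 0.30 against 0.01 over all genes. Rspo1 was at 1.72 (SE 1.20), Lamp5 at 0.74 (SE 0.77) and Tshz2 at -0.60 (SE 0.56). The others were at 0.72 for Rorb, 0.69 for Foxp2, 0.45 for Ddit4l, 0.15 for Hs3st4, -0.18 for Scnn1a, -0.32 for Fezf2 and -0.35 for Cckbr. edgeR called 0 of 10, with 0.00662% of all genes called, and 0 of 10 were under an unadjusted p of 0.05. DESeq2 called 0 of 10 as well, with 0.01% of all genes called. In 0 markers were the groups free of overlap, against 11.7% of all genes. For Rspo1, Foxp2, Lamp5, Rorb and Ddit4l the sign turned on library 752. In edgeR on the male libraries without 752, Rspo1 was at -1.74, Foxp2 at -1.21 and Lamp5 at -0.88. Rorb was at -0.54 and Ddit4l at -0.24 there. In that fit 1 of 10 markers was positive and 0 of 10 were called, with 0.00655% of all genes called. DESeq2 on only these groups without 752, also chosen after seeing the data, called Foxp2 and Lamp5 lower in KO, with 1.66% of all genes called. In 751 and 753 the other neocortex score was -0.58 and 0.07, against 0.16 to 0.42 in male WT PBS. The dentate score was 1.07 and -0.40, against -0.12 to 0.49. The part of tissue composition was not tested.

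Tau within KO mice was examined in male KO Tau against male KO PBS. Of the 10 markers, 5 were positive, and the median was 0.03 against 0.00 over all genes. Cckbr was at 0.82 (SE 0.78), Tshz2 at 0.48 (SE 0.56) and Rspo1 at -0.32 (SE 1.13), with the rest between, at 0.23 for Foxp2, 0.18 for Fezf2, 0.10 for Ddit4l, -0.05 for Rorb, -0.07 for Lamp5, -0.07 for Hs3st4 and -0.20 for Scnn1a. edgeR called 0 of 10, with 0% of all genes called, 0 of 10 were under an unadjusted p of 0.05, and DESeq2 called 0 of 10, with 0.302% of all genes called. The groups overlapped for all 10, while 9.01% of all genes had none, and without 711 Cckbr was the 1 marker free of overlap, against 22.4% of all genes. Without 752, in a setting chosen after seeing the data, DESeq2 on only these groups called Rorb higher in Tau, at 1.22, with 0.114% of all genes called. Tissue composition was not tested in this setting.

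The male genotype by treatment interaction asked whether the effect of tau differed between KO and WT. It was positive for 8 of 10 markers, with a median of 0.31 against 0.00 over all genes. Cckbr had the largest value, 1.36 (SE 1.10), and Hs3st4 the lowest, -0.30 (SE 0.33). Between them lay 0.55 for Tshz2, 0.39 for Rspo1, 0.39 for Lamp5, 0.35 for Fezf2, 0.27 for Foxp2, 0.26 for Ddit4l, 0.17 for Rorb and -0.0037 for Scnn1a. edgeR and DESeq2 each called 0 of 10, with 0% of all genes called, and 0 of 10 were under an unadjusted p of 0.05.

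In females, Acss2 loss under tau was asked by female KO Tau against female WT Tau, with 3 and 2 libraries. Of the 10 markers, 5 were positive and the median was -0.01, the same as over all genes. Rspo1 was at 0.70 (SE 0.86), Tshz2 at -0.63 (SE 0.64) and Lamp5 at 0.18 (SE 0.63). The others were at 0.28 for Hs3st4, 0.22 for Rorb, 0.12 for Foxp2, -0.14 for Cckbr, -0.18 for Fezf2, -0.18 for Scnn1a and -0.19 for Ddit4l. edgeR on the 11 Tau libraries called 0 of 10, with 0.00649% of all genes called, 0 of 10 were under an unadjusted p of 0.05, and DESeq2 called 0, with 0.00499% of all genes called. The groups overlapped for all 10 markers, while 16% of all genes had no overlap. Whether this effect differed from that in males was not tested.

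Female and male Tau libraries were compared over both genotypes, and 5 of 10 markers were lower in females, with 23.8% of all genes called (12.4% lower in females). Cckbr was at -1.95 on the log2 scale (SE 0.56, FDR 0.0302) and Lamp5 at -1.40 (SE 0.43, FDR 0.0387). Ddit4l was at -0.88 (SE 0.28, FDR 0.0434), Scnn1a at -0.87 (SE 0.28, FDR 0.0438) and Fezf2 at -0.62 (SE 0.16, FDR 0.0229). Rorb was at -0.02, Hs3st4 at -0.05 and Foxp2 at 0.34, while Rspo1 was at -1.01 and Tshz2 at -0.33, and these 5 did not pass. For all 10 markers the 5 female libraries overlapped the 6 male libraries, in Cckbr through 711, at 6.81 CPM, and the groups were without overlap in 10.5% of all genes. DESeq2 called 5 of 10, with 26.5% of all genes called. edgeR on all 17 libraries called 3 of 10, with 29.2% of all genes called, and Lamp5 and Ddit4l were not called there.

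These calls depended on single libraries. Leaving out 1 of the 11 libraries at a time, the number of markers called ran from 0 to 6. Fezf2 was called in 8 of 11 such fits and lost without 331, 341 or 773, Cckbr in 3, Scnn1a and Lamp5 in 2 each and Ddit4l in 1. Without 711, 6 markers were called, Rspo1 among them. That fit called 6290 genes in total, against 3674 with all 11 libraries. Other lists moved in the same comparison: 4 of 10 thalamus markers and 3 of 6 astrocyte markers were called higher in females, and 5 of 9 inhibitory neuron markers lower. The summed astrocyte level was 6804 to 7398 CPM in females and 6499 CPM in 711, against 3309 to 4149 CPM in the other 5 male Tau libraries. Sex and the numbering series of the libraries cannot be told apart, and the part of tissue composition was not tested.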

How the data were processed

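Poly(A) RNA from Trizol extracts was sequenced from NEBNext Ultra II libraries. The authors aligned reads to mm10 (GRCm38) with STAR 2.5.2 and counted reads over exons with HTSeq 0.9.1, reverse stranded, and the submitters' processing notes also name SAMtools 1.1. The annotation release is not given in the sources used here. The deposited values are raw counts per gene symbol in 17 libraries, with 14183131 to 22463635 counts each, which sets the counting error of each level. Of 24498 symbols, 4152 had no count and 23615 matched a GENCODE vM21 gene by name, from which positions and exon lengths were taken.

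From these counts, edgeR 4.0.16 (R 4.3.3) was run with TMM factors, filterByExpr (minimum count 10, total 15) and the quasi-likelihood F-test, with Benjamini-Hochberg FDR of 0.05 over all genes tested. The 12 male libraries formed 1 fit of 15098 genes and the 11 Tau libraries another of 15419 genes. Scores used a prior count of 2. DESeq2 1.42.0, the test the authors used on the male libraries, was an alternative, as were RLE factors, no filter, all 17 libraries, only the groups compared, and each library left out. Fits on only the groups compared with DESeq2, or with a library left out, were chosen after seeing the data. Scripts were tested on simulated data. P-values weigh a difference between groups against the spread between libraries, estimated over all groups of a fit. All 10 markers are named in each comparison, and genes of other lists were named from the 4 highest of each list by mean CPM or from those called, and some genes of these lists are not reported here. The 10 genes and all lists were chosen with earlier results of these data known.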

Additional observations from a re-analysis of the deposited data

How the results depend on the processing

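With fewer or more libraries or another tool, the number of genes called was 2 (DESeq2) and 4 (DESeq2 on only the groups compared) for male KO PBS against WT PBS, where edgeR called 1. For male KO Tau against WT Tau it was 4 and 28, against 1, and for male KO Tau against WT PBS 15 and 22, and 3 with all 17 libraries, against 1. DESeq2 called 37 genes for male KO Tau against KO PBS, and on only the groups compared 11 for male WT Tau against WT PBS, where edgeR called 0. edgeR on only the female groups called 0 genes, against 1. With each library left out in turn, the number of genes called ran from 0 to 1 for female KO Tau against WT Tau (edgeR) and 628 to 6290 for female against male Tau (edgeR). On only the groups compared it ran from 1 to 275 for male WT Tau against WT PBS (DESeq2), 0 to 36 for male WT Tau against WT PBS (edgeR), 1 to 221 for male KO PBS against WT PBS (DESeq2), 1 to 2 for male KO PBS against WT PBS (edgeR), 0 to 16 for male KO Tau against KO PBS (DESeq2), 2 to 1378 for male KO Tau against WT Tau (DESeq2), 0 to 733 for male KO Tau against WT Tau (edgeR), 2 to 1029 for male KO Tau against WT PBS (DESeq2) and 0 to 620 for male KO Tau against WT PBS (edgeR). Log2 fold changes that changed sign when 1 library was left out ran from -0.16 to 0.081 for Tshz2 and -0.42 to 0.23 for Foxp2 in male WT Tau against WT PBS. In male KO PBS against WT PBS they ran from -0.54 to 1.11 for Rorb, -1.74 to 2.28 for Rspo1, -1.21 to 1.16 for Foxp2, -0.24 to 0.86 for Ddit4l, -0.88 to 1.18 for Lamp5 and -1.29 to 0.11 for Cckbr. In male KO Tau against KO PBS they ran from -0.44 to 1.22 for Rorb, -1.06 to 3.14 for Rspo1, -0.26 to 2.13 for Foxp2, -0.36 to 0.089 for Hs3st4, -0.075 to 0.45 for Fezf2, -0.61 to 0.080 for Scnn1a, -0.30 to 0.80 for Ddit4l and -0.55 to 1.55 for Lamp5. In male KO Tau against WT Tau they ran from -0.51 to 0.19 for Tshz2, -0.43 to 0.019 for Hs3st4, -0.16 to 0.19 for Fezf2 and -0.59 to 0.10 for Scnn1a. In male KO Tau against WT PBS they ran from -0.57 to 0.12 for Tshz2, -0.20 to 0.25 for Hs3st4 and -0.33 to 0.026 for Fezf2. In the male interaction they ran from -0.22 to 1.43 for Rorb, -0.34 to 3.86 for Rspo1, -0.23 to 2.17 for Foxp2, -0.41 to 0.28 for Scnn1a, -0.14 to 0.96 for Ddit4l and -0.089 to 2.01 for Lamp5. In female KO Tau against WT Tau they ran from -0.020 to 0.50 for Rorb, -1.79 to 0.086 for Tshz2, -0.25 to 0.60 for Foxp2, -0.086 to 0.79 for Hs3st4, -0.41 to 0.0093 for Fezf2, -0.70 to 0.089 for Scnn1a, -0.53 to 0.24 for Ddit4l, -0.24 to 0.46 for Lamp5 and -0.76 to 0.17 for Cckbr. In female against male Tau they ran from -0.16 to 0.10 for Rorb and -0.30 to 0.13 for Hs3st4. Fitted to the compared groups alone and without 711, DESeq2 and edgeR gave 0.19 and 0.20 for Tshz2 and 0.10 and 0.10 for Scnn1a in male KO Tau against WT Tau, both below 0 with all libraries. Against WT PBS they gave 0.12 and 0.12 for Tshz2, -0.20 and -0.20 for Hs3st4 and 0.029 and 0.026 for Fezf2, each the opposite sign. The cause was not tested. Size factors by the RLE method and no filter on low counts moved no count of calls past 1.5 times. No paired analysis was possible because no replicate number is shared between groups.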
